A study of Mus musculus with 6 samples.

Results

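This account covers 6 genes of fructose handling and hexose transport in mouse liver: Khk, Sord, Slc2a1, Slc2a2, Slc2a4 and Slc2a5. They were chosen by name from a list put together with earlier results of the same comparison known, in which Khk and Slc2a2 had the large differences, so every LIGHT Tg against WT value of a member is given here as a description. The annotation of the array named 8 probe sets for 5 of these genes, out of 45037 probe sets and 18193 genes with 1 symbol. A probe set is the group of short probes that gives 1 signal for a transcript. Sord was not matched to a probe set and was not analysed here.

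Whole liver RNA was hybridised to 6 Affymetrix arrays, 1 per sample. There were 3 samples from wild-type mice of strain B6 (WT) and 3 from mice with a LIGHT transgene (LIGHT Tg). Tnfsf14 encodes LIGHT, a ligand of the tumour necrosis factor family. All 6 samples came from mice aged 4 to 8 weeks on the high-fat diet TD88137 for 2 weeks, so no sample on another diet was compared. The genotypes follow the titles and source names; the description field words every sample as wild type. The source names give no strain for the LIGHT Tg mice, so strain and transgene cannot be told apart, and the sources used here do not give the promoter or the cell type that drives the transgene. Tnfsf14 itself lay below the filter on low signals, at 7.70, 11.9 and 7.43 in the WT samples against 55.7, 19.3 and 26.7 in the LIGHT Tg samples at the brighter of its probe sets. Whether those probes match the transgene's transcript was not known here, so this checks no label. Nothing in the labels used here says that each sample is a separate animal, and the spread given is that between these samples.

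Values are MAS5 signals on a linear scale, and a difference is the mean log2 signal of LIGHT Tg less that of WT, with its standard error (SE) from a limma fit over all probe sets, n = 3 per group. Median signals lay between 175.1 and 183.1 on the 6 arrays. WT 1 and LIGHT Tg 1 carry the title numbers 78 and 77, and the other 4 arrays numbers from 30 to 35, whose meaning the labels do not explain. That pair of arrays stands apart from the others: Xist, which coats the inactive X chromosome, gave 444 and 407 there against 7993 to 9714 elsewhere, the Y-linked genes Kdm5d and Uty gave 569 and 488 against 41.3 to 108, and 436 and 246 against 76.2 to 132, and the 18S ribosomal RNA control 243 and 196 against 17443 to 17948. Both genotypes are present in each set, so differences are also given within the pair (1 against 1) and within the others (2 against 2).

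Fructose and glucose cross the hepatocyte membrane through facilitative transporters of the Slc2a (GLUT) family. Slc2a2 encodes GLUT2, the main hexose transporter of hepatocytes, which has a low affinity for glucose and also carries fructose and galactose. Khk encodes ketohexokinase, which phosphorylates fructose to fructose 1-phosphate, the first step of its breakdown in liver, and Tkfc acts on a later product. Sord encodes sorbitol dehydrogenase, which makes fructose from sorbitol. Slc2a1 (GLUT1) is the widely expressed glucose transporter, Slc2a4 (GLUT4) the insulin-responsive transporter of muscle and fat, and Slc2a5 (GLUT5) the fructose transporter known from intestine and kidney.

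Khk and Slc2a2 were both lower in LIGHT Tg livers, to 36.1% and 33.7% of the WT level. For each of the other 3 transporters the groups overlapped. Of the 7 member probe sets above the filter on low signals, these 2 were called lower at a 5% false discovery rate (FDR), against 0.457% of all 22519 probe sets tested that were called lower and 1.17% called in either direction. Since this contrast chose the members, nothing is read from that count. Group means of all 7 lay above the filter level (a signal of 167.4) in both genotypes, so no member was tested through 1 group alone.

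Khk had signals of 10800, 11549 and 10447 in WT 1 to 3 and of 4347, 3844 and 3658 in LIGHT Tg 1 to 3. The groups were far apart compared with their own spread: the lowest WT signal was 2.40 times the highest LIGHT Tg signal, while the SD of the log2 signals was 0.074 in WT and 0.128 in LIGHT Tg. Khk fell by 1.47 ± 0.118 on the log2 scale (2.77-fold). The difference was -1.31 in the pair and -1.55 in the other arrays. Khk stayed called in all 15 alternative settings of the analysis, with differences between -1.55 and -1.41. Some settings, such as the filters and the title-number block, cannot change the difference itself. All of them reuse the contrast that chose the members, so they describe the dependence on processing and support nothing further. Khk transcripts exist in 2 spliced forms, A and C, with C the form of liver, and the forms that the probe set detects were not known here.

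Slc2a2 had signals of 7590, 12888 and 12073 in WT 1 to 3 and of 4043, 4250 and 2634 in LIGHT Tg 1 to 3. The groups did not overlap, but the replicates spread more than for Khk, with WT 1 the lowest WT array and LIGHT Tg 3 the lowest of all, and log2 SDs of 0.416 and 0.380. The lowest WT signal was 1.79 times the highest LIGHT Tg signal. Slc2a2 fell by 1.57 ± 0.262 on the log2 scale (2.97-fold), with -0.91 within the pair and -1.90 within the other arrays. The call was kept in 8 of the 15 alternative settings and lost in 7, although the difference stayed between -1.91 and -1.35. It was lost with no filter, with arrays shifted to a common median, and without WT 2 (-1.43), WT 3 (-1.47), LIGHT Tg 1 (-1.66), LIGHT Tg 2 (-1.70) or LIGHT Tg 3 (-1.35). With the title-number set as a block the difference is the same by design. Of the 7 member probe sets tested, only those of Khk and Slc2a2 were then called, against 6.47% of all probe sets. Since the genotype contrast chose the members, nothing is read from this count either.

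Non-overlap in this direction was common on these arrays. All 3 LIGHT Tg signals lay below all 3 WT signals at 9.19% of the 22519 probe sets tested, and at 2 of the 7 member probe sets tested. By size of fall, Khk stood at place 145 and Slc2a2 at place 118 of the 22519, which describes the choice of these genes and supports nothing further.

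**Figure D1:**
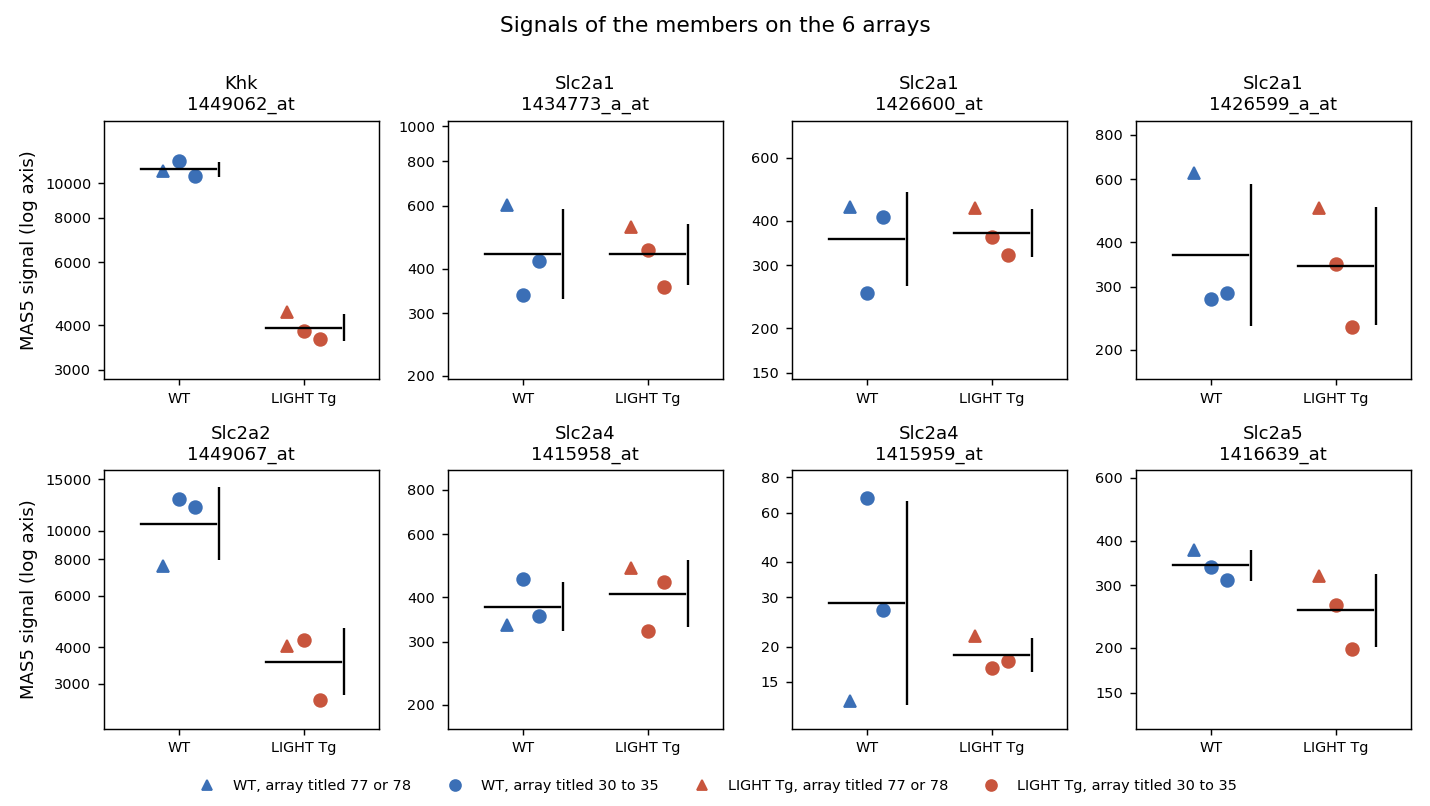
Signals of the 8 member probe sets (MAS5 signal, log axis) in WT (blue) and LIGHT Tg (red). Triangles are the arrays titled 77 and 78 and circles those titled 30 to 35, horizontal lines are geometric means and vertical bars 1 SD of the log2 signals, n = 3 per group. Khk (10447 to 11549 in WT, 3658 to 4347 in LIGHT Tg) and Slc2a2 (7590 to 12888 and 2634 to 4250) separate by genotype, while the other panels overlap.

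Hepatocyte markers showed no such fall. The list held 8 genes, 7 of them were measured, and 0 were called in limma (0 with an unadjusted p below 0.05). Their summed signal was 139219 to 146710 in WT and 133162 to 146584 in LIGHT Tg, and their log2 differences lay between -0.07 and 0.08, with albumin (Alb) at -0.04 and Cps1, the first enzyme of the urea cycle, at -0.07. Of 6 endothelial markers 1 was called, Vwf, von Willebrand factor, which rose by 2.39 ± 0.229. Stab2, a scavenger receptor of sinusoidal endothelium, had 0.75 ± 0.176 without overlap, and at the other 4 the groups overlapped, with Pecam1 at 0.19, Tie1 at 0.15, Cdh5 at 0.12 and Kdr at -0.09. The summed signal of all 6 was 3451 to 3852 in WT and 5201 to 5888 in LIGHT Tg, a gap carried by Vwf and Stab2. Signals of 6 Kupffer cell and macrophage markers summed to 15385 to 17803 and 11831 to 18085. The part of these marker differences in the falls of Khk and Slc2a2 was not tested. In whole liver, fewer cells of a type and less RNA per cell cannot be told apart.

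The promoters of Khk and Slc2a2, the members called lower in LIGHT Tg, are shown. RefSeq promoters of build GRCm38.p6, each 300 bases long from 250 before to 50 after the gene's start, were found for 5 of the 6 members, all but Slc2a4. The window of Khk is chr5:30921309-30921608 and that of Slc2a2 chr3:28697653-28697952, both on the plus strand, written 5′ to 3′ with matched motifs in capitals.
Khk: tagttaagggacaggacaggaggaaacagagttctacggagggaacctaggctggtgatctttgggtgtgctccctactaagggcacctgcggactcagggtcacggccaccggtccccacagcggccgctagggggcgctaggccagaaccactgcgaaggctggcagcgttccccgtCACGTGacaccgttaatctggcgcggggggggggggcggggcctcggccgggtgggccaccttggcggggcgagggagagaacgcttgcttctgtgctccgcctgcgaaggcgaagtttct
Slc2a2: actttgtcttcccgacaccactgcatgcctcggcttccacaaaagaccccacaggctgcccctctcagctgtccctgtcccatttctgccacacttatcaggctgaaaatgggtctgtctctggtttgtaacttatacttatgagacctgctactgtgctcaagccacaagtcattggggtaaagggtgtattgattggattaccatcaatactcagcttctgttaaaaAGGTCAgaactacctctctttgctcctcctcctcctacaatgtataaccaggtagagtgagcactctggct

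The motifs searched, on both strands, were the E-box CACGTG, which is bound by basic helix-loop-helix factors, the forkhead site TGTTTAC, the nuclear receptor half-site AGGTCA and the TATA box TATAAA. The Khk window held 1 CACGTG at -71 to -66, counted from the gene's start. This motif occurs in 7.15% of all 32851 promoters of this length. The Slc2a2 window held 1 AGGTCA at -21 to -16, a motif found in 16.3% of promoters, and no motif was shared by both windows. TGTTTAC is found in 3.65% of all promoters and in none of the 5 member windows. TATAAA is found in 13.6% and, among these windows, in that of Slc2a1, at 29 to 34, downstream of the gene's start. The windows also differ in base composition, with 65.7% G and C for Khk and 48.0% for Slc2a2, against a median of 52.7%. A match is a description of the letters and no evidence of binding.

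Slc2a1 had 3 probe sets and no clear difference between the genotypes at any of them. At the brightest, the signals were 602, 338 and 419 in WT 1 to 3 and 525, 451 and 356 in LIGHT Tg 1 to 3. The groups overlapped and the geometric means were 440.0 and 438, with a log2 difference of -0.005 ± 0.271 and a 95% interval from -0.64 to 0.63. The others gave 0.05 ± 0.272 (interval -0.59 to 0.69) and -0.10 ± 0.406 (interval -1.06 to 0.85). With intervals this wide, a moderate difference in either direction was not detectable here. Over 14 alternative settings the value at the brightest probe set lay between -0.20 and 0.22, on both sides of 0.

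Slc2a5 was dimmer in LIGHT Tg on average but was not called. Its signals were 377, 338 and 310 in WT 1 to 3 and 317, 263 and 198 in LIGHT Tg 1 to 3. LIGHT Tg 1 was above WT 3, so the groups overlapped by 1 array. The log2 difference was -0.42 ± 0.243 with a 95% interval from -0.99 to 0.15, with -0.25 within the pair and -0.50 within the other arrays. The value was negative in all 14 alternative settings that kept the probe set, between -0.58 and -0.24. Of the enterocyte markers, 5 of 6 were measured; Vil1, Lct and Cdx2 lay below the filter, and the summed signal, most of it Fabp2, was 5033 to 5904 in WT and 5883 to 7311 in LIGHT Tg. Of 6 kidney proximal tubule markers 4 lay below the filter. Their part in the Slc2a5 signal was not tested.

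Slc2a4 had 2 probe sets. The brighter gave 334, 451 and 354 in WT 1 to 3 and 483, 321 and 442 in LIGHT Tg 1 to 3. High and low arrays occur in both groups, and the log2 difference was 0.12 ± 0.235 with a 95% interval from -0.43 to 0.67. Its sign differed between the sets, with 0.53 for the pair against -0.08 for the other arrays. The dimmer probe set lay below the filter, with 12.8, 67.8 and 26.9 in WT and 21.9, 16.8 and 17.8 in LIGHT Tg, and was not tested. Markers of tissues known for Slc2a4 were low for muscle and mixed for fat. All 6 skeletal muscle markers lay below the filter, with sums of 391 to 533 in WT and 338 to 565 in LIGHT Tg. The adipocyte hormones Adipoq and Lep also lay below it, while the adipocyte markers Retn and Fabp4 lay above. Fabp4, the brightest, gave 1489, 815 and 858 in WT 1 to 3 and 1854, 719 and 1180 in LIGHT Tg 1 to 3. The 4 adipocyte markers measured summed to 1071 to 2106 and 1094 to 2416. Their part in the Slc2a4 signal was not tested.

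**Figure D2:**
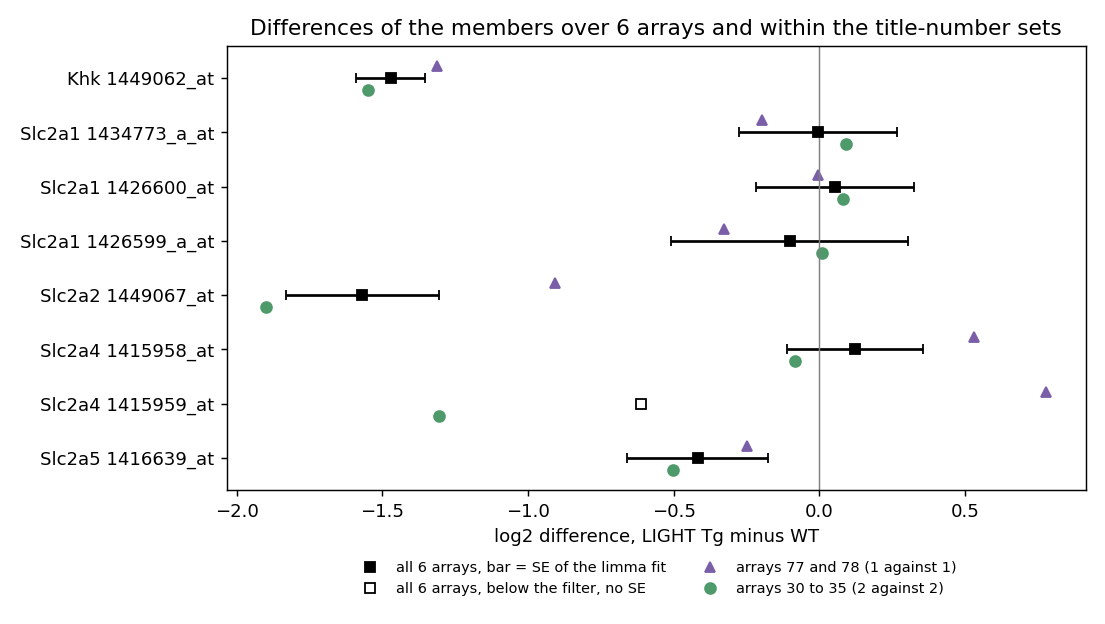
Log2 differences, LIGHT Tg minus WT, for the 8 member probe sets: squares over all 6 arrays with the SE of the limma fit (open where the probe set lay below the filter), triangles within the arrays titled 77 and 78, circles within those titled 30 to 35. Khk and Slc2a2 lie left of 0 by all 3 values, with Slc2a2 at -0.91 (triangle) and -1.90 (circle). The squares of Slc2a1 and of the brighter Slc2a4 probe set lie near 0, with SE bars that reach both sides.

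The difference between the title-number sets is independent of the genotype contrast, since each set holds both genotypes in equal share, and it was tested for the members. Of 7 member probe sets 1 was called, the third of Slc2a1, against 27.4% of all probe sets, so the members' share is not above that of the array. Slc2a1 was higher on the pair at that probe set, with 623 and 497 against 232 to 348 on the other arrays, a log2 difference of 0.98 ± 0.208 (limma adjusted p = 0.0158). The pair lay above the others on every array at each Slc2a1 probe set. At the brightest the difference was 0.53 ± 0.181 (limma adjusted p = 0.0649), and at the remaining one it was 0.40 ± 0.221 (limma adjusted p = 0.213). Without WT 1 the value was 0.81 and no longer called (adjusted p = 0.115), and over all its alternative settings the adjusted p lay between 0.0113 and 0.115. Markers of bile duct and fat also differed between the sets. Epcam, an epithelial adhesion molecule, had 5846 and 3598 on the pair and 219 to 756 on the others. Krt19 (191 and 201 against 97.3 to 134) and Sox9 (170 and 135 against 69.0 to 129) were higher on the pair too. So was Cftr, at 76.6 and 37.7 against 7.3 to 33.5. Krt7 overlapped, with 16.3 and 8.75 against 7.50 to 50.3. Krt19, Krt7, Sox9 and Cftr lay below the filter. The 5 bile duct markers measured summed to 3981 to 6300 on the pair and 447 to 1080 on the others. Of 4 adipocyte markers, summing to 2106 to 2416 and 1071 to 1464, Fabp4 and Retn were higher on both arrays of the pair, while Adipoq (39.0 and 37.5 against 14.1 to 83.5) and Lep overlapped. Their part in the Slc2a1 difference was not tested.

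Khk and Slc2a2 showed no called difference between the sets. Khk was higher on the pair by 0.09 ± 0.0954 (adjusted p = 0.488; interval -0.13 to 0.32), and Slc2a2 had -0.22 ± 0.255 (adjusted p = 0.543; interval -0.82 to 0.38). Slc2a5 had 0.34 ± 0.191 (adjusted p = 0.213) and Slc2a4 0.05 ± 0.225 (adjusted p = 0.885).

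Whether the genotype difference itself depends on the set was tested with an interaction term. No member was called, against 15 of all probe sets (0.0666%), and of the 7 member probe sets 1, that of Slc2a2, had an unadjusted p below 0.05, as had 2474 of all 22519. For Slc2a2 the fall was smaller in the pair by 0.99 ± 0.380 on the log2 scale (95% interval 0.06 to 1.92, limma adjusted p = 0.428). For Khk the interaction was 0.24 ± 0.168 (adjusted p = 0.658; interval -0.18 to 0.65). The pair gives 1 array against 1, and a dependence of the Slc2a2 fall on the set is not shown by this test.

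The other genes of hexose handling were taken in 7 lists with 77 genes in all, of which 57 were tested and 9 were not analysed here. None of the 57 passed 5% FDR in the limma fit over 6 arrays. In that fit 15 of the 57 had an unadjusted p below 0.05, against 2473 of all 22519 probe sets. With the title-number set as a block 9 passed (15.8%), 2 higher and 7 lower, against the 6.47% of all probe sets given above. The lists were chosen with earlier results of these data known, and they use only the brightest probe set of each gene. Nothing is therefore read from either comparison with all probe sets. The median log2 difference over all 11563 genes tested was -0.01.

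In the fructose and polyol route all 8 genes tested had no call in either fit (2 with an unadjusted p below 0.05), and 7 of 8 differences were negative, with a median of -0.31 (-0.36 for the pair, -0.29 for the other arrays) and a range from -0.52 to 0.04. Tkfc, triokinase, which phosphorylates the glyceraldehyde released from fructose 1-phosphate, gave 2177, 2624 and 2178 in WT 1 to 3 and 1628, 1713 and 1696 in LIGHT Tg 1 to 3. The groups did not overlap, and the log2 difference was -0.47 ± 0.144 (adjusted p = 0.257, and 0.0600 with the block). Glyctk, glycerate kinase, named after its values were seen, had -0.48 ± 0.155 (adjusted p = 0.284), but -0.06 ± 0.312 with overlapping groups at its other probe set. Akr1a1, an aldehyde reductase, and Tpi1, triose phosphate isomerase, had -0.13 ± 0.0912 and 0.04 ± 0.141, and each had probe sets of the opposite sign (0.08 for Akr1a1, -0.08 and -0.14 for Tpi1).

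Among other hexose transporters 7 of 14 measured genes were above the filter and none was called (1 with an unadjusted p below 0.05; median -0.09, range -0.74 to 0.08). Slc37a4, the glucose 6-phosphate translocase of the endoplasmic reticulum, had signals of 7472, 6232 and 6489 in WT 1 to 3 and 6243, 3868 and 2668 in LIGHT Tg 1 to 3, with LIGHT Tg 1 level with the WT arrays and a log2 difference of -0.74 ± 0.289 (adjusted p = 0.394). Slc2a8 (GLUT8), a transporter of inner membranes, had -0.09 ± 0.173. Slc2a6, Slc2a10, Slc2a12, Slc2a13, Slc5a1, Slc5a9 and Slc5a11 lay below the filter.

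Genes of hexose phosphorylation and release had no call among 6 tested (0 with an unadjusted p below 0.05; median -0.10, range -0.41 to 0.20). G6pc, the catalytic subunit of glucose 6-phosphatase, varied within both groups, with 11756, 10114 and 6083 in WT 1 to 3 and 6412, 6107 and 14343 in LIGHT Tg 1 to 3, and had -0.12 ± 0.377. Gckr, a regulator of hexose phosphorylation in liver, had -0.41 ± 0.268 (adjusted p = 0.691). Galactose and mannose entry also had no call among 6 (2 with an unadjusted p below 0.05; median -0.10), while with the block Ugp2, which makes UDP-glucose, was called at -0.60 ± 0.178 (adjusted p = 0.232, and 0.0475 with the block). Its other 4 probe sets tested were lower too, between -0.86 and -0.48.

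ChREBP, encoded by Mlxipl, is the transcription factor through which carbohydrates raise genes of glycolysis and fat synthesis in liver. Of 13 genes of this list none was called over 6 arrays (5 with an unadjusted p below 0.05; median -0.41, -0.14 for the pair and -0.54 for the other arrays), and with the block 4 fell and 1 rose. Mlxipl had signals of 6110, 7495 and 6689 in WT 1 to 3 and 3359, 4835 and 4337 in LIGHT Tg 1 to 3. The groups did not overlap, and the log2 difference was -0.71 ± 0.168 (adjusted p = 0.131, and 0.00973 with the block). Pklr, liver pyruvate kinase, had -0.79 ± 0.201 (0.157, and 0.0200 with the block), with -0.94 and -1.17 at its other probe sets. Elovl6, a fatty acid elongase, had -1.16 ± 0.237 (0.0857, and 0.0169), with -1.11 and, at a dim probe set, 0.81 elsewhere. Acaca, acetyl-CoA carboxylase 1, had -0.87 ± 0.218 (0.150, and 0.0178), with -0.22 at its other probe set. The hormone Fgf21 was higher, with 258, 361 and 459 in LIGHT Tg against 83.4, 247 and 127 in WT, a difference of 1.34 ± 0.436 (0.285, and 0.0408). The list held 7 negative and 6 positive differences. Txnip, a further target that restrains glucose uptake, named after its values were seen, had 0.04 ± 0.249.

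Liver transcription factors known from the Slc2a2 promoter had no call over 6 arrays among 8 tested (5 with an unadjusted p below 0.05; median -0.14), and with the block 2 fell and 1 rose. Onecut1 gave 223, 258 and 134 in WT 1 to 3 and 498, 1250 and 1847 in LIGHT Tg 1 to 3. The groups did not overlap, and the log2 difference was 2.41 ± 0.494 (adjusted p = 0.0861, and 0.0202 with the block), with 2.16 at its other probe set. Foxa1 had -0.91 ± 0.249 (0.192, and 0.0337 with the block) and Cebpb -0.50 ± 0.180 (0.354, and 0.0447), with -0.57 at its other probe set. The related Foxa2 and Foxa3, named after their values were seen, were higher in every LIGHT Tg sample than in any WT sample. Their differences were 0.63 ± 0.209 (0.303, and 0.0587 with the block) and 0.82 ± 0.229 (0.204, and 0.0689), and neither was called. The share of all probe sets with every LIGHT Tg signal above every WT signal was not counted here, so nothing is read from such separation. Transporter trafficking and binding proteins had no call among 9 (0 with an unadjusted p below 0.05, median -0.02). Rab10, a small GTPase of GLUT4 vesicles, had -0.24 ± 0.237 (-0.20 and 0.03 at its other probe sets). Aspscr1 (TUG), a tether of such vesicles, had -0.02 ± 0.146. Its other probe set lay below the filter and was not tested. That probe set gave 29.0, 42.3 and 69.8 in WT and 153, 284 and 205 in LIGHT Tg, a log2 difference of 2.23.

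**Figure D3:**
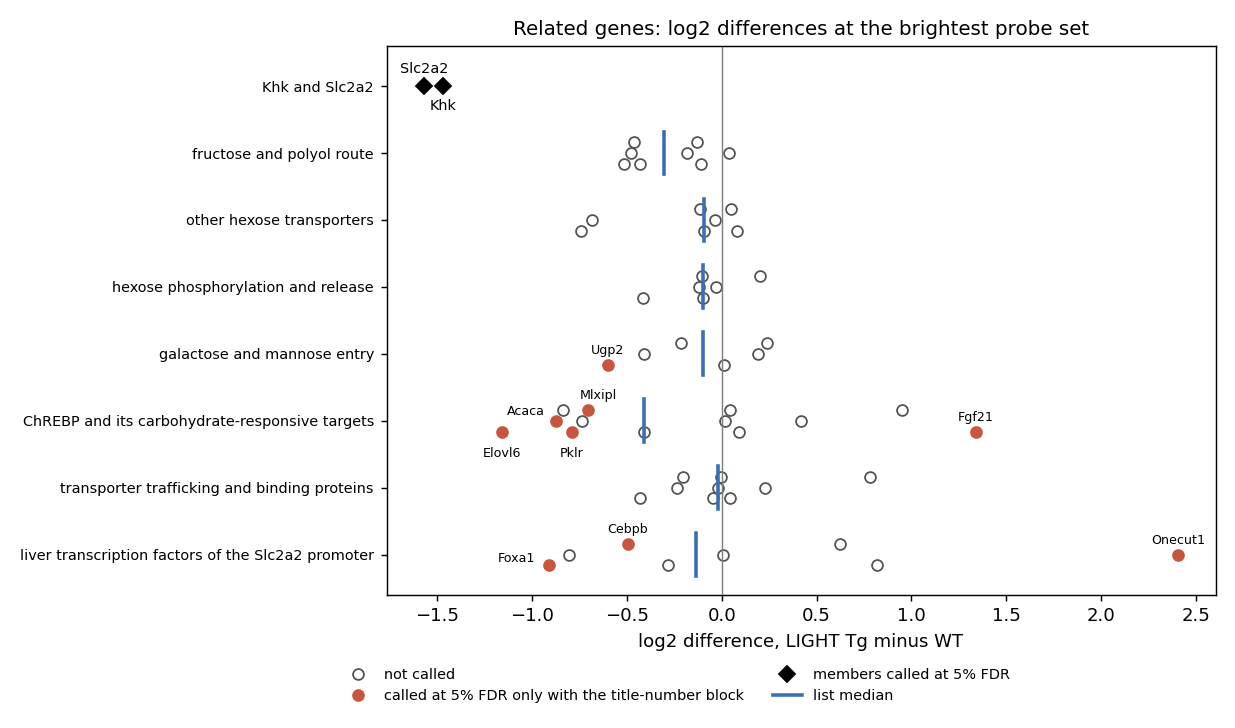
Log2 differences, LIGHT Tg minus WT, of the 57 related genes tested, by list, at the brightest probe set of each gene, with list medians as blue bars and the 9 genes called only with the title-number block filled and named. Khk (-1.47) and Slc2a2 (-1.57), which chose this group, are drawn at the top; the list medians lie between -0.41 and -0.02.

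The genes whose pattern over the 6 arrays was nearest to Khk and to Slc2a2 were found by the root mean square (RMS) difference of log2 signals, each centred on its mean, over the 11563 genes tested. The pattern includes the genotype contrast, so this is a description. Nearest to Khk were Agxt2, an aminotransferase of mitochondria (RMS 0.144), Slc38a4, an amino acid transporter (0.155), and Pbld2 (0.159), with log2 differences of -1.22, -1.46 and -1.54. Nearest to Slc2a2 were Avpr1a, a vasopressin receptor (0.152), Rnf152, a ubiquitin ligase (0.187), and Slco1a4, an organic anion transporter (0.219), with -1.41, -1.68 and -1.62. Like Slc2a2, these 3 had their lowest WT signal on WT 1 and their lowest LIGHT Tg signal on LIGHT Tg 3. Khk and Slc2a2 were 0.297 apart, which put Slc2a2 at place 42 among the neighbours of Khk and Khk at place 11 among those of Slc2a2.

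**Figure D4:**
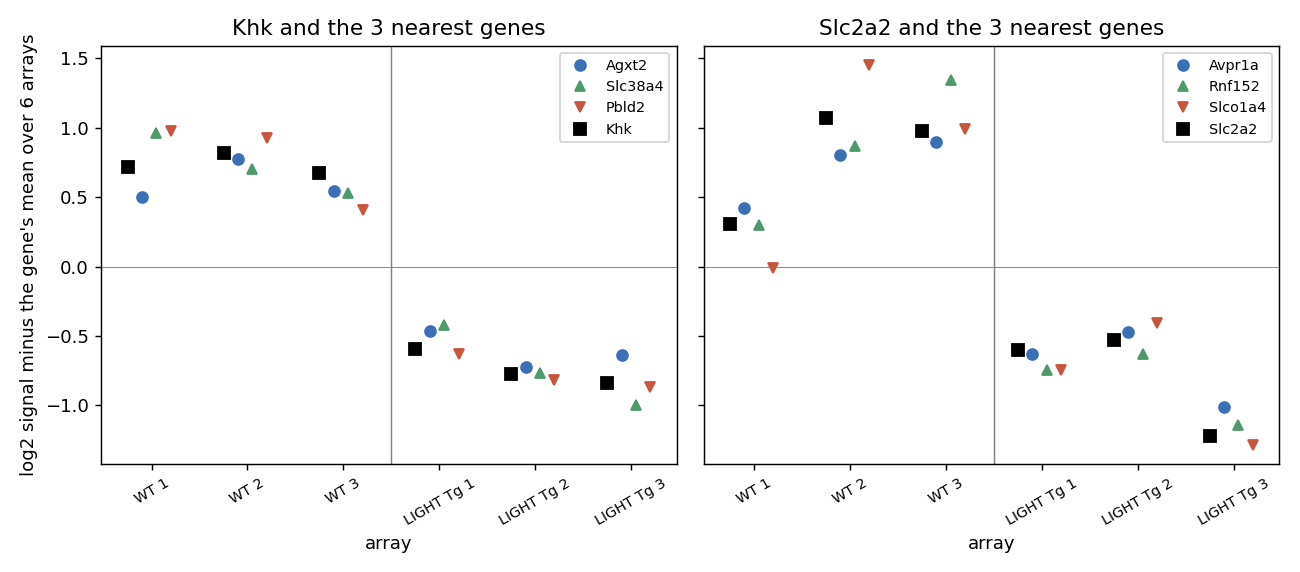
Log2 signals of Khk (left) and Slc2a2 (right), black squares, and of the 3 genes nearest to each, on the 6 arrays, centred on each gene's mean. For all 4 genes of each panel the 3 WT points lie above the 3 LIGHT Tg points; in the right panel WT 1 is the lowest WT array and LIGHT Tg 3 the lowest array for every gene shown.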

How the data were processed

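Liver RNA of 6 samples was measured on Affymetrix arrays. The table holds the authors' deposited intensities, MAS5 signals on a linear scale; the submitters' processing notes name MAS5, without a version, and no scaling target, detection calls or genome build were found in the sources used here. Trimmed means (2% off each end) lay between 490.0 and 505.1, so the arrays were read as scaled to 1 target. Without detection calls no signal could be called absent, and precision is limited by the number of arrays.

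The table has 45101 probe sets. The 64 controls were left out, 106 signals below 1 were raised to 1, and signals were log2-transformed. The probe sets whose mean log2 signal was at or above the median, 7.387, were tested (22519). The array's annotation table named the genes: 34945 probe sets had 1 symbol, 932 several (not used) and 9160 none, and a check by gene ID against RefSeq (GRCm38.p6) changed 0 symbols. The genotypes were compared with limma 3.58.1 (R 4.3.3; lmFit, eBayes with a variance trend, two-sided), with Benjamini-Hochberg adjustment over all 22519 and a threshold of 5% FDR. Set differences and the interaction come from models with genotype and title-number set. Lists use the brightest probe set of each gene. An exact permutation test of 3 against 3 cannot give a p below 0.1 and was not used.

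Members and lists were chosen with earlier results of these data known. Genes named are the members, list genes called in either fit, otherwise the 2 with the highest mean signal in a list, Tkfc, Mlxipl, Slc37a4, Tnfsf14, markers, and the 3 nearest genes to each called member; exceptions are marked, and some list genes are not reported here. Alternatives left the filter out or set it at the 75th percentile, or used an offset of 37.4 before log2, quantile normalization, a common median, array weights, the title-number block, the arrays titled 30 to 35 alone, each array left out (the filter was then set on the arrays used) and gene means over probe sets. The fits were tested on simulated data. Plots used Python 3.11.15 and matplotlib 3.10.9.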

Additional observations from a re-analysis of the deposited data

How the results depend on the processing

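Over the alternative settings the genotype differences of the 5 members measured moved by less than their SD between replicates, with no change of sign for Khk, Slc2a2 and Slc2a5. The counts of calls moved more. The 264 probe sets called between the genotypes became 1992 with array weights, 1457 with the title-number block and 975 in the arrays titled 30 to 35 alone, and 34 to 311 with 1 array left out. The count was 34 with LIGHT Tg 3 left out, 69 with LIGHT Tg 2, 71 with WT 2 and 84 with WT 3. For the lists the count of 0 became 12, 9 and 7 in those settings, and 0 to 2 with 1 array left out (2 without WT 1 and without LIGHT Tg 1). These fits without 1 array had no block and leave the sets unequal between the genotypes.

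Between the title-number sets 6163 probe sets were called, 3465 with the stricter filter, which tests fewer, and 2861 to 4605 with 1 array left out, lowest without WT 1, and 3757 without LIGHT Tg 1, 3776 after leaving out WT 2 and 4072 after leaving out WT 3. Among members not called, the set difference changed sign in some fits with 1 array left out: Khk ranged from -0.024 (without LIGHT Tg 1) to 0.213, Slc2a2 from -0.717 to 0.273 (without WT 1), and Slc2a4 from -0.258 (without LIGHT Tg 1) to 0.357, with -0.093 when LIGHT Tg 2 was left out. The interaction count of 15 became 3 with no filter, 7 with the stricter filter, 8 with the offset and 2 to 82 with 1 array left out (2 with WT 2 or WT 3 left out, 82 with LIGHT Tg 2, 59 with LIGHT Tg 3); it could not be fitted after leaving out an array of the pair. The cause of these changes was not tested. No paired analysis was possible because the replicate numbers follow listing order and pair no samples.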
